A study of Mus musculus with 6 samples.

Results

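The 35 genes described here mark macrophages and monocytes of the mouse spleen. They were taken by symbol through the Ensembl gene IDs of a table of 56884 genes, all 35 were found, and 33 passed the filter on low counts; Timd4 and Trem2 did not. The table held 6 libraries from the Eµ-SOX11CCND1 mouse model of mantle cell lymphoma, a B cell lymphoma. Splenic B cells of wild-type (WT) mice, enriched by selection, gave 3 libraries, called WT A, B and C because their columns could not be tied to single mice. Spleens from passage 1 (P1) of an adoptive transfer model gave the other 3, replicates 3, 4 and 5, and no cell selection is named for them. In the name of the model, Eµ stands for the immunoglobulin heavy chain enhancer, which drives expression in B lineage cells, and SOX11 and CCND1 are the expressed genes. The WT columns carry the strain name BL6; the strain of the recipients and the age and sex of all mice are not stated in the labels, and neither is whether the 3 recipients received cells of 1 tumour. The columns of WT A and WT B share a code in their names that WT C lacks, so separate mice cannot be taken for granted. The p-values measure the spread between these libraries.

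Macrophages of the splenic red pulp engulf aged red cells, break down their haem and export the iron. Their fate is set by the transcription factor Spi-C, encoded by Spic. Macrophages of the marginal zone sit where blood enters the white pulp and carry scavenger receptors for particles and microbes. Monocytes arrive from bone marrow and blood, in part through the chemokine receptor CCR2, and can turn into macrophages. A selection for B cells should leave few of these cells, whereas whole spleen holds all of them. In bulk RNA, fewer cells of a type and less RNA per cell cannot be told apart.

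Library totals were 7510327 to 10363396 counts in P1 and 12196413 to 14266132 in WT. Levels are given as CPM, counts scaled to a common library size after TMM, a correction for composition, and gene positions are those of the table (GRCm39). P1 replicate 4 stood apart, with 17.4% mitochondrial counts against 0.0854% and 3.40% in replicates 5 and 3, and a summed CPM of 223300 for 10 red cell genes against 36170 in replicate 3 and 6646 in replicate 5. Of 13 pan-B cell genes, 12 were lower in P1, against 11% of all genes tested. Their summed CPM was 1014 to 2858 in P1 and 9842 to 10860 in WT. Cell selection, genotype and tumour differ between the groups at once and cannot be told apart.

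All 3 listed Fc gamma receptor genes were higher in P1 spleen than in the selected WT B cells. So were 4 of 6 monocyte genes and 2 of 5 marginal zone genes. None of the 7 red pulp genes passed the test in either direction. Over all members 11 of 33 tested genes (33.3%) were higher, against 16.9% of all 15462 genes tested, and 0 were lower, against 11%; in either direction 27.9% of all genes were called. The test was edgeR's quasi-likelihood test with Benjamini-Hochberg adjustment over all genes at 0.05. At an unadjusted edgeR p under 0.05, 16 members were higher and 1 lower, against 3457 higher and 2733 lower of all 15462 genes tested. DESeq2 called 13 members higher and 0 lower, against 20.1% of the genes it tested called higher. The median log2 fold change was 1.16 over the members tested and 0.02 over all genes tested. In 14 of the 33, all 3 P1 libraries lay above all 3 WT libraries, a pattern seen in 22.9% of all genes, and in 1 member, Apoe, they lay below (24.9% of all genes). P1 replicate 3 held the highest P1 value for 25 of the 35 members, replicate 4 for 6 and replicate 5 for 4. The number of members called higher fell to 6 of 34 tested without WT A and to 5 of 34 without WT B. All genes called higher fell in the same fits, from 2618 of 15462 tested to 1715 of 16071 and 1644 of 16265. The 5 genes called in every fit that left out a library were Msr1, Ly6c2, Cd14, Fcgr3 and Fcgr4.

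**Figure D1:**
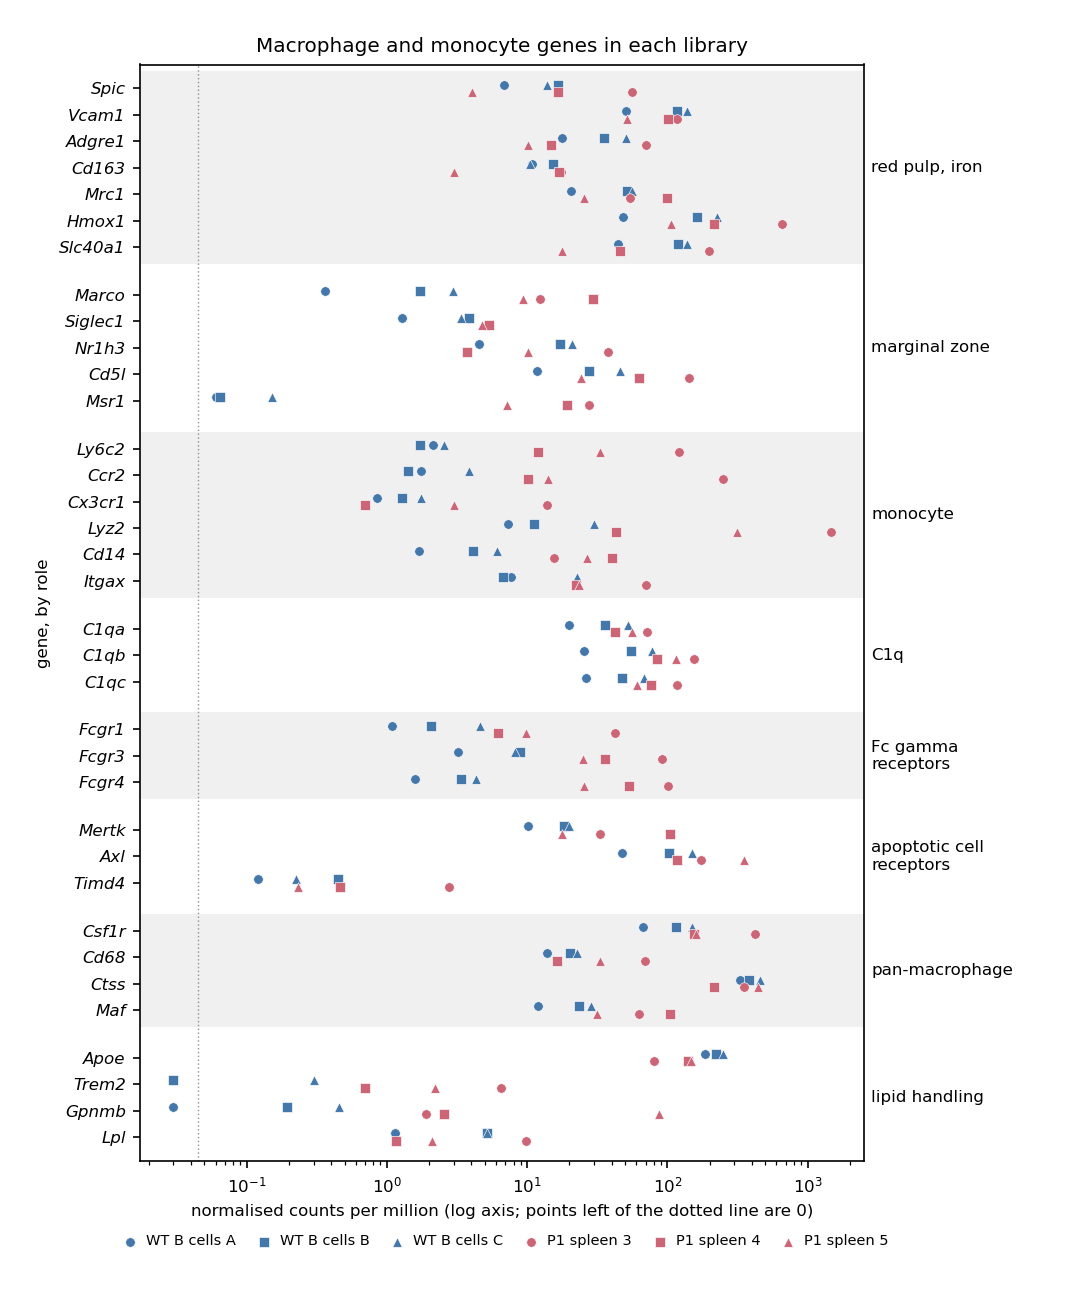
Normalised CPM (log axis) of the 35 genes by role, with 1 point per library (blue for WT B cells A, B and C, red for P1 spleen replicates 3, 4 and 5; circle, square and triangle in that order). Red and blue points are mixed in the red pulp rows, while in the rows of Ly6c2, Ccr2, Lyz2, Cd14 and the Fc gamma receptors every red point lies to the right of every blue point; the points at 0 are WT A and B for Trem2 and WT A for Gpnmb.

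Red pulp genes were present in the selected WT B cells at levels that overlapped those of P1 spleen. Slc40a1 (chromosome 1, 45947228 to 45965683) encodes ferroportin, the iron exporter, and had 44.3, 119 and 138 CPM across WT A to C and 197, 46 and 17.7 CPM across P1 replicates 3 to 5. The P1 libraries spanned the whole WT range and more, with replicate 3 highest and replicate 5 lowest of all 6. Its log2 fold change was -0.21 ± 0.79 (SE; adjusted p = 0.872, edgeR). Vcam1 (chromosome 3, 115903598 to 115923337) encodes an adhesion molecule of red pulp macrophages and of stromal cells, and had 50.8, 118 and 137 CPM across WT A to C and 118, 102 and 51.5 CPM across P1 replicates 3 to 5. The groups overlapped, with WT A and P1 replicate 5 the low libraries of each, and the log2 fold change was -0.17 ± 0.43 (SE; adjusted p = 0.802, edgeR).

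Spic (chromosome 10, 88510634 to 88520877) had 6.79, 16.6 and 13.9 CPM across WT A to C and 56.1, 16.7 and 4.06 CPM across P1 replicates 3 to 5. Replicate 3 was above the WT libraries, replicate 4 level with WT B, and replicate 5 below all of them; the log2 fold change was 1.05 ± 0.79 (SE; adjusted p = 0.356, edgeR). Hmox1, the haem-degrading enzyme heme oxygenase 1, was the most counted of the 7 and had 48.6, 162 and 226 CPM across WT A to C and 653, 216 and 107 CPM across P1 replicates 3 to 5. Only replicate 3 lay above the WT range, and the log2 fold change was 1.16 ± 0.72 (SE; adjusted p = 0.269, edgeR). Adgre1, which encodes the macrophage surface marker F4/80, had 17.8, 35.1 and 50.3 CPM across WT A to C and 70.7, 14.8 and 10.1 CPM across P1 replicates 3 to 5, and was at -0.10 ± 0.71 log2 units (SE; adjusted p = 0.934, edgeR). Replicates 4 and 5 were below all 3 WT libraries and replicate 3 above them.

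Cd163, the receptor for haemoglobin bound to haptoglobin, had 10.9, 15.2 and 10.4 CPM across WT A to C and 17.5, 16.9 and 3.02 CPM across P1 replicates 3 to 5, with replicate 5 below every other library. Mrc1, the mannose receptor, had 20.7, 51.2 and 55.9 CPM across WT A to C and 54, 98.8 and 25.3 CPM across P1 replicates 3 to 5, and here replicate 4 was the highest. Their log2 fold changes were 0.03 ± 0.58 and 0.47 ± 0.53 (edgeR adjusted p = 0.977 and 0.546). The sign of the Cd163 value turned with library totals, with no filter and in 4 of the 6 fits that left out a library. Replicate 5 was the lowest P1 library for all 7 red pulp genes, and replicate 3 the highest for 6. The summed CPM of the 7 genes was 199.9, 517 and 632 across WT A to C and 1166, 511 and 219 across P1 replicates 3 to 5. The median log2 fold change was 0.03. At an unadjusted p under 0.05, 0 of the 7 passed in either direction with edgeR and 0 with DESeq2. Single libraries moved these values. Without P1 replicate 3, 2 of the 7 were lower at an unadjusted p under 0.05, with Slc40a1 at -1.68 and Adgre1 at -1.48 (edgeR adjusted p = 0.0733 and 0.0536), Spic was at -0.31 and Hmox1 at 0.14. Without P1 replicate 5, 1 of the 7 was higher at an unadjusted p under 0.05, and Slc40a1, Adgre1 and Vcam1 were at 0.26, 0.32 and 0.09. The signs of Slc40a1 and Adgre1 also turned without P1 replicate 4 and without WT C, that of Vcam1 without WT C, and that of Mrc1 without P1 replicate 4. With standard errors of 0.43 to 0.79 on the log2 scale, these comparisons do not show that the levels were alike.

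The WT libraries themselves differed in these genes. WT A was the lowest of the 3 for 31 of the 35 members and for 6 of the 7 red pulp genes. The CPM of the 7 red pulp genes was a median of 2.44 times as high in WT B and 2.71 times as high in WT C as in WT A. For the 13 pan-B cell genes the same medians were 1.08 and 0.944. For the 6 monocyte genes they were 1.19 and 2.57, and for the 5 marginal zone genes 3.03 and 3.94. Ctss, which B cells also express, was at 1.16 times the CPM of WT A in WT B and 1.38 times in WT C, and Apoe at 1.20 and 1.34 times.

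Marginal zone genes gave a split picture. Msr1 (chromosome 8, 40034726 to 40095714), the class A scavenger receptor of macrophages, was counted 1, 1 and 2 times in WT A to C and 322, 83 and 62 times in P1 replicates 3 to 5. In CPM it had 0.0606, 0.0642 and 0.151 in WT and 27.7, 19.2 and 7.19 in P1, and the groups were far apart. It rose by 7.50 ± 0.74 log2 units (SE; adjusted p = 0.000622, edgeR), although the size of the fold rests on 4 WT counts. Marco (chromosome 1, 120402267 to 120432753), the collagen-like scavenger receptor of marginal zone macrophages, had 0.364, 1.73 and 2.95 CPM across WT A to C and 12.4, 29.4 and 9.28 CPM across P1 replicates 3 to 5. All 3 P1 libraries were above all WT libraries, replicate 4 by the most, and it rose by 3.33 ± 0.76 log2 units (SE; adjusted p = 0.0125, edgeR). Without WT B its adjusted p was 0.0594 in edgeR.

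The other marginal zone members did not pass. Siglec1, the sialic acid receptor of metallophilic macrophages, had 1.27, 3.85 and 3.4 CPM across WT A to C and 5.25, 5.32 and 4.76 CPM across P1 replicates 3 to 5. The P1 values were close to each other and all above WT, and the log2 fold change was 0.84 ± 0.50 (SE; adjusted p = 0.242, edgeR). Nr1h3, the nuclear receptor LXR alpha on which marginal zone macrophages depend, had 4.54, 17.1 and 21 CPM across WT A to C and 37.8, 3.7 and 10.2 CPM across P1 replicates 3 to 5, with a log2 fold change of 0.30 ± 0.80 (SE; adjusted p = 0.815, edgeR). Cd5l, a secreted macrophage protein and LXR target, had 11.7, 27.8 and 46 CPM across WT A to C and 142, 63.2 and 24.4 CPM across P1 replicates 3 to 5, with a log2 fold change of 1.43 ± 0.67 (SE; adjusted p = 0.147, edgeR). In both, replicate 3 was highest and the groups overlapped. Cd209b, which encodes the marginal zone lectin SIGN-R1, had 1 count over the WT libraries and 1 over the P1 libraries. It is named here after its values were seen. Timd4, a phosphatidylserine receptor of some resident macrophages, had 2, 7 and 3 counts in WT and 32, 2 and 2 in P1, and was not tested in the main fit. With no filter on low counts it was not called (adjusted p = 0.124, edgeR).

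Of the 6 monocyte genes 4 rose, and in those 4 no P1 library overlapped WT. Ccr2 (chromosome 9, 123901987 to 123913594) had 1.76, 1.41 and 3.86 CPM across WT A to C and 250.2, 10.2 and 14.2 CPM across P1 replicates 3 to 5. All P1 libraries were above WT, but replicate 3 was far above the other 2. It rose by 5.30 ± 1.29 log2 units (SE; adjusted p = 0.0169, edgeR), and by 2.38 (adjusted p = 0.0135) without replicate 3. Ly6c2 (chromosome 15, 74980007 to 74983819), a surface antigen of classical monocytes that some T cells carry too, had 2.12, 1.73 and 2.57 CPM across WT A to C and 121, 12 and 33.3 CPM across P1 replicates 3 to 5 and rose by 4.70 ± 0.81 log2 units (SE; adjusted p = 0.00388, edgeR), and by 3.41 (adjusted p = 0.00345) without replicate 3. Its reads can be exchanged with the close paralog Ly6c1. Lyz2 (chromosome 10, 117113236 to 117118226), lysozyme of monocytes, macrophages and neutrophils, had 7.33, 11.1 and 30.1 CPM across WT A to C and 1471, 42.8 and 312 CPM across P1 replicates 3 to 5. Per kilobase of gene length it was at 12.3 ± 9.27 CPM per kilobase in WT and 463 ± 577 in P1 (SD, n = 3), the highest P1 mean of the members but above Ctss only in replicate 3. It rose by 5.24 ± 1.23 log2 units (SE; adjusted p = 0.0143, edgeR), and by 3.46 (adjusted p = 0.0253) without replicate 3.

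Cd14, the lipopolysaccharide co-receptor, had 1.7, 4.11 and 6.12 CPM across WT A to C and 15.5, 40.5 and 26.8 CPM across P1 replicates 3 to 5 and rose by 2.79 ± 0.55 log2 units (SE; adjusted p = 0.00651, edgeR). Unlike the other monocyte genes it was lowest in replicate 3 and highest in replicate 4. Cx3cr1, the fractalkine receptor of patrolling monocytes, had 0.848, 1.28 and 1.74 CPM across WT A to C and 13.8, 0.694 and 3.02 CPM across P1 replicates 3 to 5, with replicate 4 below all WT libraries, and its log2 fold change was 2.21 ± 0.90 (SE; adjusted p = 0.102, edgeR). Without replicate 4 it was 2.74 (adjusted p = 0.0307). Itgax, the CD11c integrin chain of dendritic cells and some monocytes, had 7.7, 6.74 and 22.6 CPM across WT A to C and 70.2, 22.2 and 23.5 CPM across P1 replicates 3 to 5, and replicate 4 lay just below WT C. Its log2 fold change was 1.66 ± 0.61 (SE; adjusted p = 0.0782, edgeR), and 2.39 (adjusted p = 0.0334) without WT C. DESeq2 called 5 of the 6, with Cx3cr1 and Itgax among them (adjusted p = 0.041 and 0.0284) and no adjusted p for Ccr2. The Ccr2 and Lyz2 calls were lost without WT A (adjusted p = 0.0705 and 0.0619) and without WT B (0.0776 and 0.0707), and with no filter on low counts (0.157 and 0.141).

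Markers of neutrophils moved with the monocyte genes, and neutrophils express Lyz2, Cd14, Fcgr3 and Fcgr4 as well. Of 14 neutrophil genes 14 were higher in P1. Over all genes tested, 16.9% were called higher and 11% lower. The summed CPM of the neutrophil genes was 4.24 to 12.5 in WT and 7959, 1089 and 2707 in P1 replicates 3, 4 and 5. The summed CPM of the 6 monocyte genes was 21.4, 26.4 and 67 across WT A to C and 1941, 128 and 413 in the same P1 order, so both lists were highest in replicate 3 and lowest in replicate 4. Lyz2 alone gave 1471, 42.8 and 312 CPM of these P1 sums. By gene, replicate 3 was highest for 5 of the 6 and replicate 4 lowest for 5, and Cd14 was the exception to both. None of the neutrophil markers was at 0 over the P1 libraries. Of 7 T cell genes 7 were higher as well, with summed CPM of 43.3 to 55.5 in WT and 246 to 511 in P1. The part of neutrophils and T cells in the monocyte and Fc receptor values was not tested. Of 8 tested dendritic cell genes 1 was higher (Batf3, not called without WT A or WT B) and 1 lower (Ccr7), and the summed CPM of the 11 listed was 236 to 551 in WT and 63.6 to 117 in P1. In WT and in P1 replicate 5 most of that sum was Ccr7, which naive lymphocytes also express. The other 10 genes summed to 20, 19 and 38.3 CPM across WT A to C and 85.6, 43 and 21.8 CPM across P1 replicates 3 to 5. In P1 replicates 3 and 4 these 10 were the larger part of 117 and 63.6 CPM. The sum without Ccr7 was added after the data were seen.

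**Figure D2:**
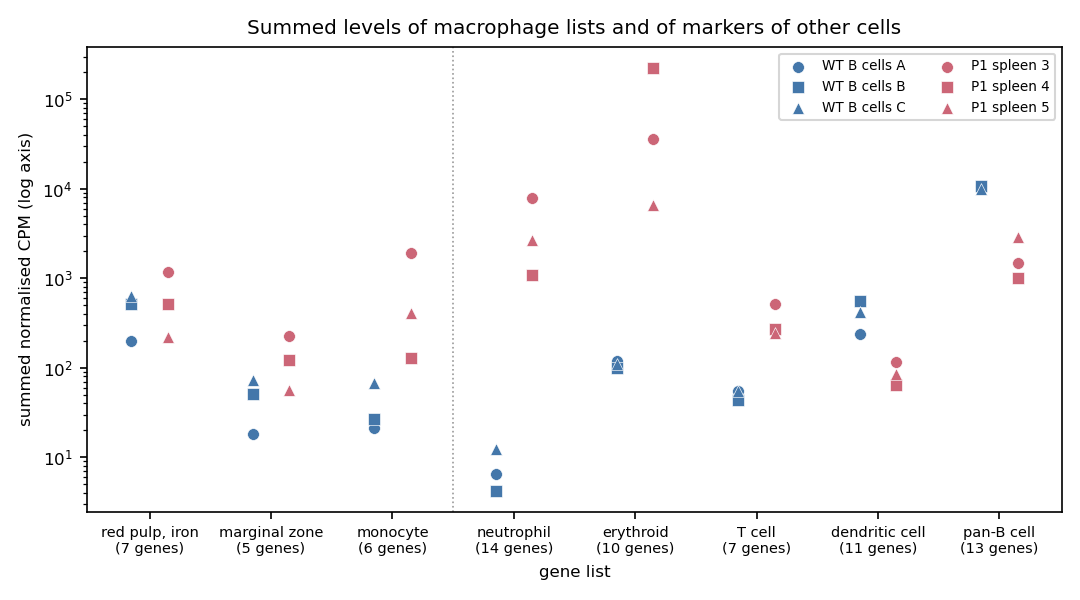
Summed normalised CPM (log axis) of 3 macrophage and monocyte lists, left of the dotted line, and of markers of other cells, right of it, with 1 point per library. Red pulp sums overlap between WT (blue) and P1 (red), the P1 monocyte sums of 128 to 1941 lie above the WT sums of 21.4 to 67, and neutrophil, erythroid and T cell sums are higher in every P1 library.

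The 3 listed receptors for the Fc part of IgG all rose. They let macrophages, monocytes and neutrophils bind antibody-coated targets, and each signals through the common gamma chain. Fcgr4 (chromosome 1, 170846489 to 170857330), found on non-classical monocytes, macrophages and neutrophils, had 1.58, 3.4 and 4.31 CPM across WT A to C and 101, 53 and 25.3 CPM across P1 replicates 3 to 5 and rose by 4.27 ± 0.60 log2 units (SE; adjusted p = 0.00179, edgeR). Fcgr3 (chromosome 1, 170878743 to 170892504), a low-affinity receptor, had 3.21, 8.86 and 8.24 CPM across WT A to C and 91.4, 35.9 and 25.2 CPM across P1 replicates 3 to 5 and rose by 2.91 ± 0.58 log2 units (SE; adjusted p = 0.00717, edgeR). Fcgr1 (chromosome 3, 96190225 to 96201285), the high-affinity receptor used as a macrophage marker, had 1.09, 2.05 and 4.61 CPM across WT A to C and 42.3, 6.25 and 9.74 CPM across P1 replicates 3 to 5 and rose by 2.93 ± 0.82 log2 units (SE; adjusted p = 0.0296, edgeR). In all 3 genes replicate 3 was highest and the groups did not overlap. The Fcgr1 call did not hold when WT A, WT B or replicate 3 of P1 was left out (adjusted p = 0.104, 0.116 and 0.0865, edgeR), nor with no filter on low counts (0.0855). Fcgr3 and Fcgr4 lie near each other and share sequence with other Fc receptor genes, so some of their reads could be assigned to a relative.

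The promoters of the 3 Fc receptor genes and of Marco are shown as examples of members with all P1 libraries above WT and a PU box in the promoter. Ly6c2 and Trem2 had both as well and are not shown. The PU box is the site type bound by PU.1, the myeloid and B cell factor encoded by Spi1, and by its relative Spi-C. RefSeq promoters (GRCm38.p6, 250 bases before to 50 after the start) were at hand for 24 of the 35 members. The 11 others were C1qa, Hmox1, Adgre1, Cd14, Slc40a1, Siglec1, Msr1, Csf1r, Vcam1, Lpl and Maf. The letters GAGGAAG, on either strand, were in a promoter of 12 of the 24 members, against 15.4% of 27025 genes. The Maf-type letters TGCTGAG were in 5 of 24 (8.93% of all genes) and the E-box CACGTG in 0 of 24 (8.09% of all genes). GAGGAAG and TGCTGAG can share the letters GAG, CACGTG is its own complement, and a match is not a binding site. Below are the 250 bases before the start, 5′ to 3′ on the strand of the gene, with the box in capitals; GAGGAAG reads CTTCCTC where it lies on the other strand. They are chr3:96293970-96294219 (minus strand) for Fcgr1, chr1:171059404-171059653 (minus) for Fcgr3, chr1:171018676-171018925 (plus) for Fcgr4 and chr1:120505025-120505274 (minus) for Marco, in GRCm38.p6.
Fcgr1: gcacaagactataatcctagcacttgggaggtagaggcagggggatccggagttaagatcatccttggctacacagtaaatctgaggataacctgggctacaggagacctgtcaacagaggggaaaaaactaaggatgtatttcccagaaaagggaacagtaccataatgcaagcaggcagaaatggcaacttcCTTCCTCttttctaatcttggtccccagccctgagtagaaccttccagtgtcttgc
Fcgr3: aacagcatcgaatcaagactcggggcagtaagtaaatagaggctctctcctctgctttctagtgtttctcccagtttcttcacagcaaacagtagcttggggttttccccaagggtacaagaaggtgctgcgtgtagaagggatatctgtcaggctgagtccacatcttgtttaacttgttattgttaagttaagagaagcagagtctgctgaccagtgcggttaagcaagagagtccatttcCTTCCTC
Fcgr4: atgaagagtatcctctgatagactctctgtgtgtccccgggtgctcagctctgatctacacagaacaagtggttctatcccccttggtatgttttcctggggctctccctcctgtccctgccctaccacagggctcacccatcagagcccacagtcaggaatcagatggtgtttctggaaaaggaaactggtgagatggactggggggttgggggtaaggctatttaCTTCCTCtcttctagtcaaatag
Marco: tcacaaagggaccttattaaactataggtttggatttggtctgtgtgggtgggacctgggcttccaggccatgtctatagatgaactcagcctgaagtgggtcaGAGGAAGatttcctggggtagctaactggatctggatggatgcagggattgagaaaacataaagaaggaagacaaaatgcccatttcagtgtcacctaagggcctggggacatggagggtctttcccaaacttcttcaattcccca
The box began 56 bases before the start in Fcgr1, 7 in Fcgr3, 23 in Fcgr4 and 146 in Marco. The other members with a box were Mrc1, Nr1h3, Cd5l, Ctss, C1qc, Axl, Ly6c2 and Trem2, and Ccr2, Lyz2, Spic and Cd163 had none in this window. Spi1 itself had 89, 108 and 105 CPM across WT A to C and 166, 51.6 and 87.9 CPM across P1 replicates 3 to 5, with a log2 fold change of 0.02 ± 0.40 (SE; adjusted p = 0.974, edgeR), and is named here after its values were seen.

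**Figure D3:**
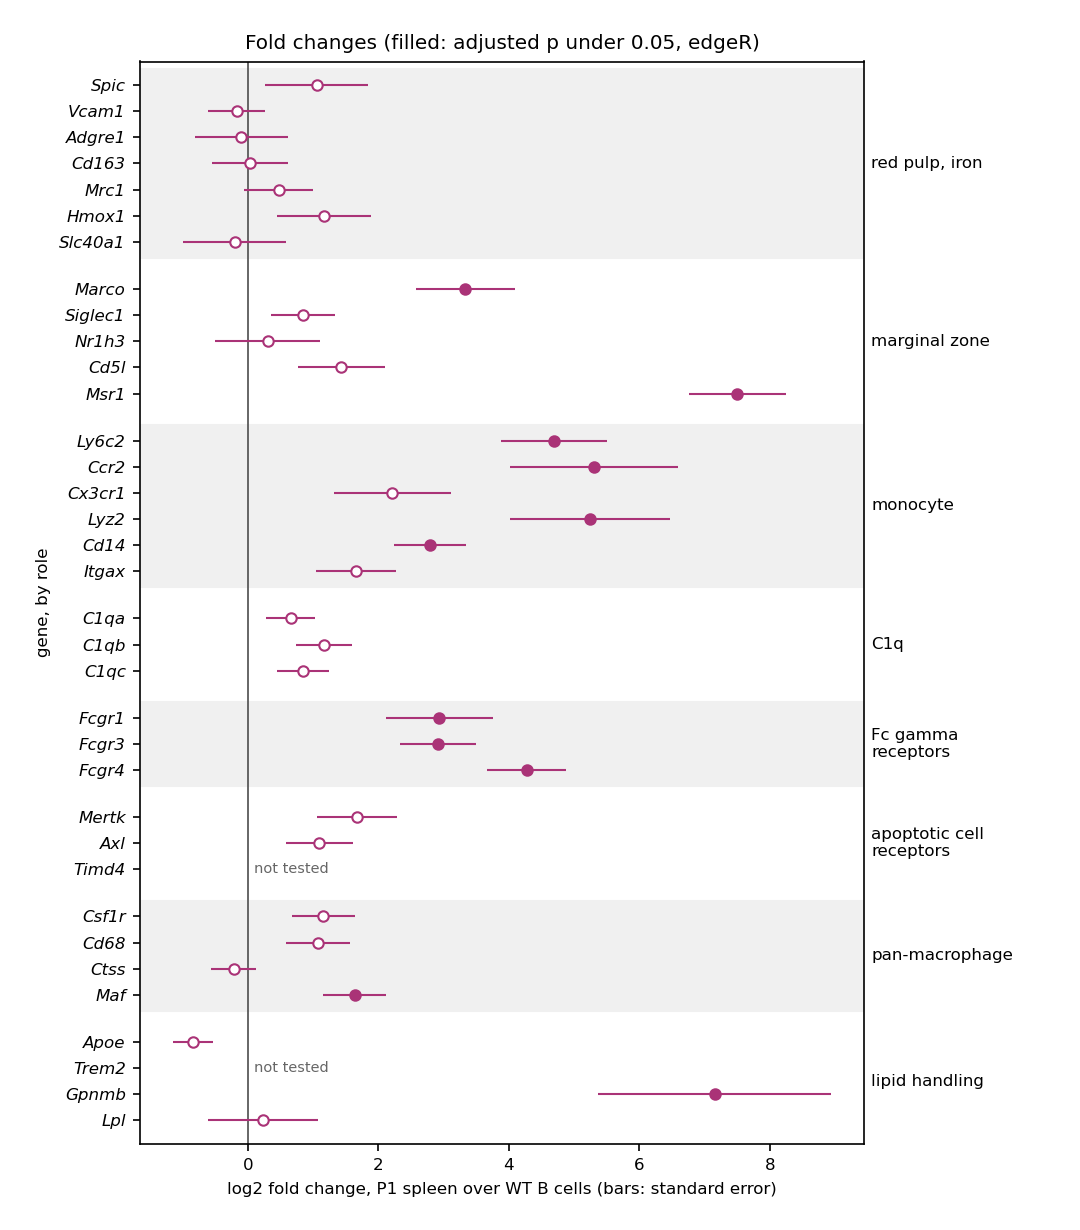
Log2 fold change of P1 spleen over WT B cells for each gene, by role, with the standard error as a bar; filled points have an edgeR adjusted p under 0.05. All 11 filled points lie to the right of 0, none of them in the red pulp rows, where the 7 points lie between -0.21 and 1.16.

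C1q, the complement component that recognises immune complexes and dying cells, is built from 3 chains whose genes lie side by side (C1qb, C1qc and C1qa, chromosome 4, 136607440 to 136626114). C1qb had 25.3, 55 and 77.9 CPM across WT A to C and 155, 84.2 and 115 CPM across P1 replicates 3 to 5, so that all P1 libraries were above WT, and its log2 fold change was 1.16 ± 0.42 (SE; adjusted p = 0.0739, edgeR). C1qa had 19.9, 36.1 and 52.4 CPM across WT A to C and 71.7, 42.6 and 55.9 CPM across P1 replicates 3 to 5 and C1qc had 26.4, 47.7 and 67.9 CPM across WT A to C and 117, 77.1 and 60.8 CPM across P1 replicates 3 to 5. In these 2 genes the groups overlapped at WT C, and the log2 fold changes were 0.66 ± 0.38 and 0.84 ± 0.39 (edgeR adjusted p = 0.234 and 0.147). At an unadjusted p under 0.05, 1 of the 3 (C1qb) was higher, and DESeq2 called that gene (adjusted p = 0.0374). Per kilobase of gene length the order C1qb, C1qa, C1qc held in every library and for the means of both groups. C1qa and C1qc were closest in P1 replicate 4, at 40.9 and 39.9 CPM per kilobase. C1qb was at 48.5 ± 24.3 CPM per kilobase in WT and 108 ± 32.4 in P1, C1qa at 34.7 ± 15.6 CPM per kilobase in WT and 54.5 ± 14 in P1, and C1qc at 24.5 ± 10.8 CPM per kilobase in WT and 43.9 ± 14.9 in P1 (SD, n = 3). The ranges within 1 SD of neighbours overlapped, except for C1qb and C1qa in P1. This SD is the spread between libraries, and the 3 chains were measured in the same libraries. It therefore does not measure how firm their order is, which was not tested.

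Receptors for apoptotic cells were not called. Mertk, a receptor kinase for the bridging proteins GAS6 and protein S, had 10.2, 18.4 and 19.96 CPM across WT A to C and 33.4, 104 and 17.7 CPM across P1 replicates 3 to 5. Replicate 4 was far above the other libraries and replicate 5 lay within the WT range, and the log2 fold change was 1.67 ± 0.61 (SE; adjusted p = 0.0764, edgeR). Without replicate 5 it was 2.05 (adjusted p = 0.0219). Axl, its relative, had 47.8, 103 and 149 CPM across WT A to C and 173, 117 and 351 CPM across P1 replicates 3 to 5, with replicate 5 highest, and the log2 fold change was 1.10 ± 0.51 (SE; adjusted p = 0.149, edgeR). DESeq2 called Mertk (adjusted p = 0.0261).

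Of the genes that most macrophages share, only Maf passed the edgeR test. Csf1r (chromosome 18), the receptor for the macrophage growth factor CSF1, had 66.7, 115 and 151 CPM across WT A to C and 425, 156 and 159 CPM across P1 replicates 3 to 5. All P1 libraries were above WT, replicates 4 and 5 by little, and the log2 fold change was 1.16 ± 0.48 (SE; adjusted p = 0.107, edgeR). Its exons share 3446 bases with the antisense gene Hmgxb3, and the counting strand is not given in the sources used here, so reads of the pair may not be told apart. Exons of Vcam1, Cx3cr1 and Maf share 183, 78 and 440 bases with antisense gene models. Cd68, a lysosomal membrane protein, had 13.8, 20.3 and 22.8 CPM across WT A to C and 68.8, 16.4 and 33.3 CPM across P1 replicates 3 to 5, with a log2 fold change of 1.07 ± 0.49 (SE; adjusted p = 0.139, edgeR), and 1.46 (adjusted p = 0.0315) without replicate 4. Maf, a transcription factor of resident macrophages and of T helper cells, had 11.9, 23.6 and 28.3 CPM across WT A to C and 62.5, 105 and 31.4 CPM across P1 replicates 3 to 5 and rose by 1.63 ± 0.48 log2 units (SE; adjusted p = 0.0363, edgeR). Of the 6 fits that left out a library, the call held in 1, the fit without P1 replicate 5 (adjusted p 0.0583 to 0.129 in the other 5), and with library totals in place of TMM it was 0.0772. Ctss, cathepsin S of antigen-presenting cells including B cells, had 332, 385 and 460.1 CPM across WT A to C and 353, 214 and 443 CPM across P1 replicates 3 to 5 and a log2 fold change of -0.22 ± 0.34 (SE; adjusted p = 0.67, edgeR). It had the highest level per kilobase of all members in WT, with 289 ± 47.3 CPM per kilobase in WT and 248 ± 84.9 in P1.

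Genes of lipid-laden macrophages differed from each other. Gpnmb (chromosome 6, 49013480 to 49047863), a membrane protein of lysosome-rich macrophages, was counted 0, 3 and 6 times in WT A to C and 22, 11 and 748 times in P1 replicates 3 to 5. In CPM it had 0, 0.193 and 0.454 in WT and 1.89, 2.55 and 86.8 in P1, with replicate 5 far above the other P1 libraries. It rose by 7.15 ± 1.78 log2 units (SE; adjusted p = 0.0187, edgeR), and by 3.33 (adjusted p = 0.0325) without replicate 5. The call did not hold when WT A or WT B was left out (0.0693 and 0.0807) and with no filter on low counts (0.16), and DESeq2 gave no adjusted p. Trem2, a lipid-sensing receptor of macrophages, had 0, 0 and 4 counts in WT and 76, 3 and 19 in P1 and was below the filter of the main fit. In other edgeR fits it was higher with no filter (adjusted p = 0.0076), without WT C (0.0204) and without P1 replicate 4 (0.0155). It was not called without WT A or WT B (edgeR adjusted p = 0.071 and 0.0779). Apoe, the apolipoprotein, had 185, 222 and 248 CPM across WT A to C and 79.8, 139.5 and 148 CPM across P1 replicates 3 to 5. It was the member with all P1 libraries below WT. Its log2 fold change was -0.84 ± 0.31 (SE; adjusted p = 0.0763, edgeR), and -1.02 (adjusted p = 0.0467) without P1 replicate 5. Lpl, lipoprotein lipase, had 1.15, 5.14 and 5.22 CPM across WT A to C and 9.8, 1.16 and 2.09 CPM across P1 replicates 3 to 5, and the groups overlapped, with a log2 fold change of 0.23 ± 0.84 (SE; adjusted p = 0.864, edgeR).

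To compare members with each other inside a library, each was expressed as a percentage of the summed CPM of Csf1r, Adgre1, Mertk and Fcgr1. These genes did not move together, with log2 fold changes of 1.16, -0.10, 1.67 and 2.93 in that order. Adgre1 is itself one of the red pulp genes. The percentages therefore depend on the choice of this sum. That sum was 95.7, 170.1 and 226 CPM across WT A to C and 571, 281 and 197 CPM across P1 replicates 3 to 5. On this scale Slc40a1 was at 46.3, 70.1 and 61.1% across WT A to C and 34.5, 16.4 and 9.01% across P1 replicates 3 to 5, so every P1 library was below every WT library. Vcam1 was at 53.1, 69.2 and 60.8% across WT A to C and 20.6, 36.2 and 26.1% across P1 replicates 3 to 5, again with P1 below WT. Hmox1 overlapped between the groups. Fcgr4 was at 1.65, 2 and 1.91% across WT A to C and 17.6, 18.9 and 12.8% across P1 replicates 3 to 5, with P1 above WT.

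Ccr2 was at 1.84, 0.83 and 1.71% across WT A to C and 43.8, 3.62 and 7.19% across P1 replicates 3 to 5, and Lyz2 at 7.66, 6.53 and 13.3% across WT A to C and 258, 15.2 and 158% across P1 replicates 3 to 5, both with P1 above WT. Msr1 was at 0.0633, 0.0378 and 0.067% across WT A to C and 4.85, 6.84 and 3.65% across P1 replicates 3 to 5, and Marco at 0.38, 1.02 and 1.31% across WT A to C and 2.17, 10.5 and 4.71% across P1 replicates 3 to 5. The C1q chains overlapped between the groups on this scale, with C1qa at 20.8, 21.2 and 23.2% across WT A to C and 12.6, 15.2 and 28.4% across P1 replicates 3 to 5. Of the 6 red pulp genes outside the sum, 2 were below WT in all P1 libraries and 4 overlapped. Of the 6 monocyte genes 3 were above WT and 3 overlapped, and of the 5 marginal zone genes 2 were above and 3 overlapped. This is a description with no test. The share of all genes separated on this scale was not computed, so these counts stand without a background. Csf1r held 55.5% to 80.9% of the sum, and without it Cd163 was below WT as well, Cd14 and Maf were above WT, and Lyz2 overlapped (up to 40.2% in WT and down to 34.3% in P1), a scale added after the data were seen.

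**Figure D4:**
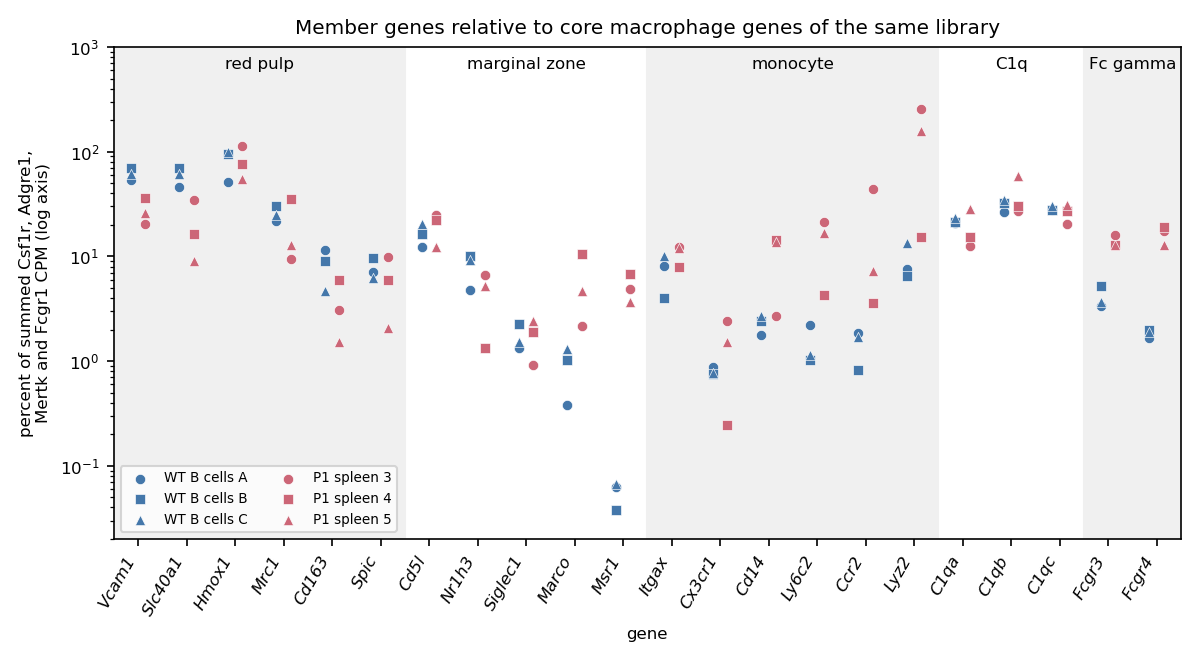
Level of 22 members as a percentage of the summed CPM of Csf1r, Adgre1, Mertk and Fcgr1 in the same library (log axis), with 1 point per library (WT blue, P1 red). Vcam1 and Slc40a1 lie lower in all P1 libraries, Marco, Msr1, Ly6c2, Ccr2, Lyz2, Fcgr3 and Fcgr4 lie higher, and the C1q chains overlap.

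Other genes of the same pathways were counted from lists that hold no members. Of 13 tested transcription factors of myeloid cells 6 were higher and 2 lower, against 16.9% and 11% of all genes tested. Cebpb rose by 1.87 ± 0.31 log2 units (SE; adjusted p = 0.00331, edgeR), from 20.8, 35.6 and 40.4 CPM in WT A to C to 125, 130.3 and 97.8 CPM in P1 replicates 3 to 5. Klf4 and Nr4a1, needed for classical and for patrolling monocytes and also early-response genes of B cells, fell (-2.92 ± 0.50 and -3.05 ± 0.35; edgeR adjusted p = 0.00367 and 0.000901). Irf8, expressed in monocytes and B cells, was the most counted, with 641, 676 and 731 CPM across WT A to C and 332, 201 and 444 CPM across P1 replicates 3 to 5 and a log2 fold change of -1.07 ± 0.36 (SE; adjusted p = 0.0564, edgeR). Without WT A, without WT B and with library totals, 2 were higher, of 14, 14 and 13 tested. All genes called higher fell too in these fits, to 1715 of 16071 tested, 1644 of 16265 and 1928 of 15462, from 2618 of 15462.

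Of 7 tested growth factors, their receptors and ligands 6 were higher, against 16.9% of all genes tested. Csf2rb, the shared beta chain of the GM-CSF receptor, had 32.2, 33.8 and 37.2 CPM across WT A to C and 362, 418 and 455 CPM across P1 replicates 3 to 5 and rose by 3.58 ± 0.27 log2 units (SE; adjusted p = 0.000376, edgeR). Csf1, the ligand of Csf1r, had 6.12, 6.55 and 9 CPM across WT A to C and 42.7, 34.2 and 41.2 CPM across P1 replicates 3 to 5 and rose by 2.45 ± 0.29 log2 units (SE; adjusted p = 0.000909, edgeR). For both, the P1 libraries were close to each other and apart from WT, and 6 genes of this list were higher in each of the 6 fits that left out a library. The chemokine gene Ccl7 was listed at 0 in all 6 libraries, and Csf2 at 0 in P1.

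Of 13 other monocyte genes 8 were higher. Over all genes tested, 16.9% were called higher. Chil3, a secreted chitinase-like protein of monocytes and of immature neutrophils, had 0.182, 0.128 and 0.529 CPM across WT A to C and 441, 175 and 398 CPM across P1 replicates 3 to 5 and rose by 10.24 ± 0.68 log2 units (SE; adjusted p = 0.000337, edgeR). Vcan, the proteoglycan versican of classical monocytes, had 0.182, 0.385 and 0.454 CPM across WT A to C and 87.5, 14.1 and 29.6 CPM across P1 replicates 3 to 5 and rose by 6.99 ± 0.82 log2 units (SE; adjusted p = 0.000919, edgeR). Another list held 15 genes of resident macrophages, of which 10 were tested and 7 were higher. Not tested were Cd209b, Vsig4, Folr2, Clec4f and Lyve1. They had 1, 5, 2, 1 and 1 counts over the WT libraries and 1, 5, 7, 0 and 6 over the P1 libraries. Itgam, the CD11b integrin chain that neutrophils carry too, rose by 5.53 ± 0.81 log2 units (SE; adjusted p = 0.00207, edgeR), and Lgals3, galectin 3, by 2.84 ± 0.61 log2 units (SE; adjusted p = 0.00969, edgeR). Mpeg1, the pore protein perforin-2, had 54.7, 94.8 and 122 CPM across WT A to C and 579, 113 and 261 CPM across P1 replicates 3 to 5 and rose by 1.81 ± 0.58 log2 units (SE; adjusted p = 0.0478, edgeR), although P1 replicate 4 lay below WT C. The number of this list called higher fell to 2 without WT A or WT B and to 3 without WT C or P1 replicate 3. It fell to 4 with library totals or no filter. Of this list 15 genes were tested with no filter and 10 in the other fits named. All genes called higher were 1715 of 16071 tested without WT A and 1644 of 16265 without WT B, against 2618 of 15462 in the main fit. They were 1991 of 16255 without WT C and 2908 of 16255 without P1 replicate 3. With library totals they were 1928 of 15462, and with no filter 3234 of 31473.

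Of 12 other genes of haem and iron handling 8 were higher, against 16.9% of all genes tested. Lrp1, a scavenger receptor that takes up haem bound to haemopexin, had 50.9, 82.4 and 122 CPM across WT A to C and 591, 1149 and 322 CPM across P1 replicates 3 to 5 and rose by 3.01 ± 0.55 log2 units (SE; adjusted p = 0.00489, edgeR). Steap3, an iron reductase of red cell precursors and macrophages, had 2, 2.25 and 2.57 CPM across WT A to C and 65.7, 16 and 11.5 CPM across P1 replicates 3 to 5 and rose by 3.78 ± 0.69 log2 units (SE; adjusted p = 0.00483, edgeR). Ftl1, ferritin light chain, was the most counted, with 219, 359 and 443 CPM across WT A to C and 746, 940.0 and 672 CPM across P1 replicates 3 to 5, and rose by 1.21 ± 0.36 log2 units (SE; adjusted p = 0.0378, edgeR). Hamp and Hpx, made in liver, were listed at 0 in P1. The summed CPM of this list was 2621, 4338 and 1670 in P1 replicates 3, 4 and 5 and, like the red cell genes, was highest in replicate 4. The number of iron genes called higher fell to 2 without WT A or WT B, to 4 without WT C, and to 5 without P1 replicate 4 or with library totals. The part of red cell precursors in these values was not tested. Of 14 lysosome and lipid genes 7 were higher, among them Ctsl, cathepsin L, at 1.96 ± 0.30 log2 units (SE; adjusted p = 0.00242, edgeR), and Fabp5, a fatty acid binding protein, at 3.49 ± 0.64 log2 units (SE; adjusted p = 0.00491, edgeR). Ctsb, cathepsin B, was the most counted and was at 1.27 ± 0.44 log2 units (SE; adjusted p = 0.0658, edgeR). The 7 became 3 without WT A or WT B and 4 without WT C. Among all genes, 1715 of 16071 tested were called higher without WT A, 1644 of 16265 without WT B and 1991 of 16255 without WT C. With library totals 1928 of 15462 were called higher. Without P1 replicate 4 it was 2818 of 16609, against 2618 of 15462 in the main fit.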

How the data were processed

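RNA of 3 selected B cell samples and 3 spleens was sequenced; 50 ng of total RNA went into strand-marking NEBNext libraries, per the labels' protocols. The authors deposited raw counts per gene. Per the submitters' processing notes, Trim Galore, HISAT2, featureCounts and GRCm39 were used; versions, options and counting strand are not given in the sources used here. Gene lengths are the other deposited column used.

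Genes were given symbols by Ensembl ID (51948 of 56884). They were filtered with filterByExpr (15462 kept), scaled by TMM factors, and the groups were compared by edgeR 4.0.16 in R 4.3.3 (robust quasi-likelihood fit, no covariates). P-values were adjusted by Benjamini-Hochberg over all genes at 0.05. "Rose" and "fell" mean an adjusted p under 0.05, and ± is the standard error for log2 fold changes and the SD over 3 libraries for levels per kilobase. The test was tried on simulated data first.

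All 35 members could be named. From each other list, the 2 with the smallest adjusted p, the most counted, those called against the list's direction and those listed at 0 in a group were eligible. The members and lists were chosen with earlier results of these data known. Alternatives were DESeq2 1.42.0, RLE factors, library totals, B-cell-centred scaling (13 pan-B genes, Cr2 and Fcer2a among them), no filter, and leaving out each library. One result among the other lists is not reported here.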

Additional observations from a re-analysis of the deposited data

How the results depend on the processing

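RLE factors and DESeq2 kept the direction of all 33 tested members, and library totals that of all but Cd163; library totals lost the Maf call (adjusted p = 0.0772). B-cell-centred scaling shifted all genes (median log2 fold change 4.05, against 0.02) and called 14793 genes higher and 42 lower (99.7% of calls higher, against 60.6%). Under it 33 members were higher, with all 7 red pulp, 5 marginal zone and 6 monocyte genes. It turned Vcam1, Adgre1, Slc40a1, Ctss and Apoe from negative to 3.95, 3.65, 3.59, 3.70 and 3.33, all under the shift of all genes. The red pulp median was then 0.18 above that of all genes and the monocyte median 3.63. With no filter 8 of 35 members tested were higher, Trem2 among them, and 1, Apoe, lower (-0.98, edgeR adjusted p = 0.0412). Of the monocyte genes 2 were higher. Leaving out a library gave 1644 to 3206 higher and 815 to 2313 lower genes, 5 to 13 members higher and 0 to 1 lower, 1 to 2 marginal zone and 2 to 5 monocyte genes higher. In each of these 6 fits edgeR called 0 red pulp genes, whose median relative to all genes ranged from -0.32 (without P1 replicate 3) to 0.50 (without P1 replicate 5). The cause of these differences was not tested. The low counts of Msr1, Gpnmb, Trem2 and Timd4 in WT limit their folds. No paired analysis was possible because the labels match no WT mouse to a recipient. A shared replicate number would not make a pair, and the WT columns carry no replicate number.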
